A study of Mus musculus with 2 samples.

Results

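Promoters at which the Zfp322a and the IgG library of mouse ES cells piled up reads to like heights are described here. A member is a stretch of the autosomes on which at least 9 Zfp322a reads overlapped, whose highest Zfp322a pileup was under 2 times its highest IgG pileup, and which touched the promoter window of an annotated transcript, from -1000 to 100 bp of its transcription start site (TSS). Only reads with a mapping quality, the aligner's score for a unique placement, of at least 25 were used; each was extended to 300 bp, and stretches at most 300 bp apart were joined. Of 4512 promoter stretches, 1049 met this rule, or 23.2%. Among all 7278 autosomal stretches, at promoters or elsewhere, 1600 (22.0%) were under 2-fold, and among the 2766 away from TSS windows 551 (19.9%). The members were thus selected on the heights themselves. Heights, folds of heights and reads inside the members are given as a description without a test.

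The study mapped binding sites of Zfp322a, a zinc finger protein, in E14 cells, a mouse ES cell line grown with LIF, whose background strain the labels give as C57BL/6. Sonicated chromatin was precipitated with anti-ZNF322 antibody for the Zfp322a library and with anti-Rabbit IgG antibody for the control, and 1 library was sequenced for each. The libraries held 5187475 and 4843481 mapped reads, of which 4151151 (80.0%) and 3877802 (80.1%) had a mapping quality of at least 25. With 1 library per antibody no difference given here has a replicate check, intervals cover counting error only, and the cell type cannot be checked against marker genes because genomic DNA was sequenced.

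Most mammalian promoters of housekeeping genes lie in CpG islands, stretches rich in G, C and the dinucleotide CG that are usually free of DNA methylation and held open in ES cells. A precipitation with non-specific IgG shows which regions collect reads without the protein of interest, and a fold over this control is the usual criterion for a binding site. The members are promoters at which that fold was low although the Zfp322a library alone reached the height asked of a site.

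To show what such promoters look like, the 120 bases upstream of the TSS are printed for 4 of the highest members below 20 reads in the Zfp322a library. They were picked after the values were seen, as protein-coding promoters with no more than 1 read of low mapping quality, whose printed bases lie inside the member and outside every annotated exon. *Mlst8* codes for a subunit of the mTOR complexes, *Eif3a* for a subunit of a translation initiation factor, *Upf1* for the helicase of nonsense-mediated mRNA decay and *Scaf8* for a factor that binds the tail of RNA polymerase II. The printed bases are chr17:24616024-24616143 (minus strand), chr19:60866597-60866716 (minus strand), chr8:72877173-72877292 (minus strand) and chr17:3114852-3114971 (plus strand) of mm9, read 5′ to 3′ along the gene. Capitals mark every CG dinucleotide.
Mlst8: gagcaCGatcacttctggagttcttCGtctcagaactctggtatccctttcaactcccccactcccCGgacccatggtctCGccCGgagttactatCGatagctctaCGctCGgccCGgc
Eif3a: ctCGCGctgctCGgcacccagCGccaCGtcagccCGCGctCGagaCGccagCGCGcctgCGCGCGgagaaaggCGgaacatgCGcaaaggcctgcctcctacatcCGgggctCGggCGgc
Upf1: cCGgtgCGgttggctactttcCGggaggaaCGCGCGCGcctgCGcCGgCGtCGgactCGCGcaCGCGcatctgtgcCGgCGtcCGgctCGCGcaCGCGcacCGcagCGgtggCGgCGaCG
Scaf8: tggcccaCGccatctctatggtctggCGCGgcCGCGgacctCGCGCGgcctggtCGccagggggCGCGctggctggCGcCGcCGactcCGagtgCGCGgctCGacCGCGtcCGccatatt

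These 4 sequences held 9, 19, 27 and 21 CG dinucleotides in the order printed, and their GC content was 58.3%, 74.2%, 77.5% and 75.8%. A GC box (GGGCGG) starts at base 114 of the *Eif3a* sequence. The heights of these members were 19 Zfp322a and 10 IgG reads at *Mlst8*, 18 and 12 at *Eif3a*, 17 and 11 at *Upf1*, and 17 and 10 at *Scaf8*.

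The highest members included a different kind of sequence. At *Gm10801* on chromosome 2 and *Gm10715* on chromosome 9, predicted genes that the annotation gives as protein-coding, the forward strand of mm9 at chr2:98502854-98502973 and chr9:3035810-3035929 reads as follows, outside annotated exons, again with CG in capitals.
Gm10801: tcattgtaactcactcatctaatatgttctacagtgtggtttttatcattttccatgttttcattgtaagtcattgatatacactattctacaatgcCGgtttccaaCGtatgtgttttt
Gm10715: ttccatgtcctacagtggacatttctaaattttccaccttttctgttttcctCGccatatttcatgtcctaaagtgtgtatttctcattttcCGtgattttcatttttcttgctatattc

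Each of the latter sequences held 2 CG dinucleotides, with a GC content of 31.7% and 34.2%. The *Gm10801* member reached 44 Zfp322a and 43 IgG reads, and the *Gm10715* member 47 and 43. The members therefore hold at least these kinds of sequence, and they are described in turn, the many low CpG-rich promoters first.

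The 1049 members had a median Zfp322a height of 11 reads (range 9 to 217) and a median IgG height of 7 (range 5 to 218). The median fold of Zfp322a over IgG height was 1.57, between extremes of 0.286 and 1.91. Most members lay low: 476 (45.4%) had a Zfp322a height of 9 or 10 reads, 469 had 11 to 14, 78 had 15 to 19 and 26 had 20 or more. The fold was from 1.5 to under 2 in 685 members (65.3%) and from 1 to under 1.5 in 333 (31.7%), so within the limit the Zfp322a library was mostly the higher of the libraries. IgG was higher in 31 members (2.96%), and the heights were equal in 27. In 259 members (24.7%) the IgG library by itself reached the 9 reads asked of Zfp322a. The median length of a member was 247 bp, with quartiles of 123 and 374 bp.

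**Figure D1:**
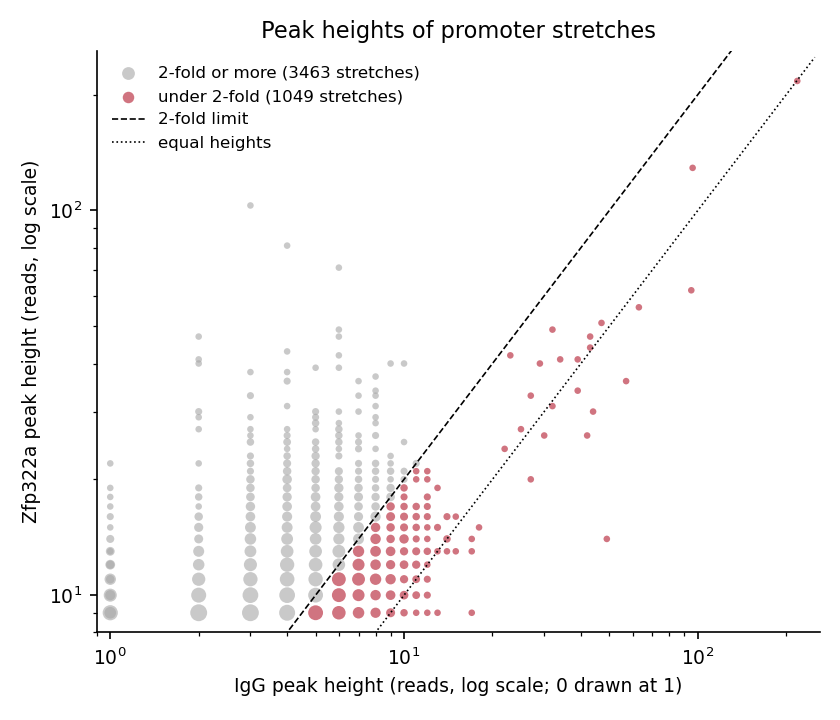
IgG peak height (x axis, reads, log scale) against Zfp322a peak height (y axis, reads, log scale) of the 4512 autosomal promoter stretches; larger points stand for more stretches with the same heights. The 1049 members, in red, lie right of the dashed 2-fold limit by construction, most of them low, and 26 reach 20 Zfp322a reads or more.

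At the limit of the rule, the members of highest fold, ties going to the higher Zfp322a height and then to genome order, were *St13*, a co-chaperone gene, with 21 and 11 reads, *Gak*, a clathrin uncoating kinase gene, with 19 and 10, and *Noc4l*, a nucleolar protein gene, with 19 and 10, the same as *Mlst8*. Just outside stood *SNORA76* and *Tarbp2*, a partner of Dicer, each with 22 and 11 reads, and *Eri3* with 20 and 10. A fold from 1.8 to under 2 was found for 280 members, and 351 other promoter stretches had a fold from 2 to under 2.2, 245 of them exactly 2. The median GC content of the TSS windows was 64.2% inside and 64.6% outside. The limit thus runs through a dense range of folds, and neighbours across it differ by 1 read.

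The summits of both libraries lay at the TSS. The highest point of the Zfp322a pileup was at a median of -9 bp from the TSS that names the member, and that of the IgG pileup also at -9 bp. Within 250 bp of the TSS were 81.5% of Zfp322a summits and 80.9% of IgG summits. The summits of the libraries were at most 150 bp apart in 877 members (83.6%), with a median distance of 53 bp. Both summits were taken inside the same member, so its length bounds their distance, and the TSS window of the rule bounds their place. Across the 1023 members under 20 reads the heights correlated with a Pearson r of 0.529 and a Spearman rho of 0.647 across regions, which share their libraries and whose range of folds the rule bounds.

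Averaged over the 1023 members of 9 to 19 reads and placed by their 5′ ends, reads per kb and per 1000000 library reads peaked at 7.12 in the Zfp322a library, from 0 to 50 bp after the TSS, and at 4.86 in IgG, from 50 bp upstream to the TSS. These peaks were 7.28 and 5.66 times the mean level 1500 to 2000 bp away. Forward reads, those in the direction of the gene, were densest from -100 to -50 bp in Zfp322a and from -150 to -100 bp in IgG, and reverse reads from 50 to 100 bp in both, so in both libraries forward reads were densest before and reverse reads after the TSS. At the 2029 promoter stretches of 3-fold or more with 9 to 19 reads, the Zfp322a peak was 7.77 times the distant level and the IgG peak 2.64 times. The latter ratio was 2.35 in IgG and 2.70 in Zfp322a at the 16742 protein-coding genes without any stretch. Both the higher IgG peak at the members and the like Zfp322a peaks of the fold classes follow from the choice of stretches by these heights.

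**Figure D2:**
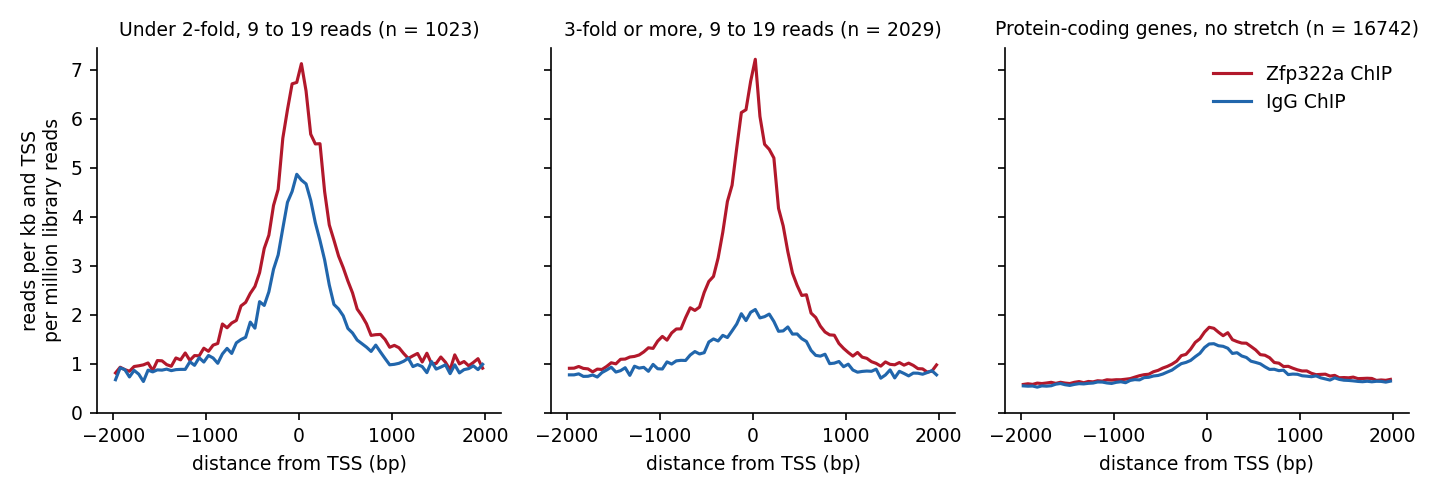
Reads per kb and TSS per 1000000 library reads (y axis) by distance from the TSS (x axis, bp, bins of 50 bp) in the Zfp322a (red) and IgG (blue) libraries, for 1023 members of 9 to 19 reads, 2029 promoter stretches of 3-fold or more of the same heights, and 16742 protein-coding genes without a stretch. The Zfp322a curves peak at 7.12 and 7.21 in the first 2 groups, and the IgG curves at 4.86 and 2.11.

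The sequence of the promoters was not used by the rule. In windows of 500 bp centred on the TSS, 919 of the 1049 members (87.6%, exact Clopper-Pearson 95% interval 85.5 to 89.5%) met the criteria of a CpG island, a GC content of at least 50% and an observed to expected CpG ratio of at least 0.6. The share was 89.4% (87.6 to 91.0%) for stretches of 2- to 3-fold and 84.0% (82.4 to 85.5%) for those of 3-fold or more. It was 48.4% (47.8 to 49.1%) for all 21418 autosomal protein-coding genes and 38.5% for those without a stretch. The TSS was chosen differently in these groups. For stretches it was the overlapped TSS nearest to the middle of the stretch, and for genes the most upstream annotated TSS. With this difference, the members had such windows far more often than all genes, and the part of the TSS choice in this was not tested. Pooled over heights, their interval overlaps that of the 2- to 3-fold class and just meets that of the 3-fold class. By height, the members had them in 85.5% (82.0 to 88.5%) against 78.4% (75.7 to 80.9%) of the 3-fold class at 9 or 10 reads and in 92.8% (90.02 to 94.9%) against 87.0% (84.3 to 89.4%) at 11 to 14, where the intervals do not overlap. In the 2- to 3-fold class the shares at these heights were 86.4% (82.9 to 89.4%) and 91.5% (88.9 to 93.6%). Both intervals overlap those of the members. At 15 to 19 reads the members had 88.5% (79.2 to 94.6%) and the 3-fold class 92.5% (89.0 to 95.1%), with intervals that overlap. The order of the members and the 3-fold class was thus not the same at all heights. Their median GC content was 64.4% (quartiles 60.4 and 68.6%), against 64.6% in both other classes and 57.4% for all genes.

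Composition changed with height within the members. The share of CpG island windows was 85.5% at 9 or 10 reads, 92.8% at 11 to 14 and 88.5% at 15 to 19, but 30.8% (8 of 26, 14.3 to 51.8%) at 20 reads or more, where the median GC content was 48.0%. Promoter stretches of 3-fold or more with at least 20 reads had such windows in 89.3% of cases (83.7 to 93.6%). The share of the 26 high members lies below the intervals of the low ones, and 18 of the 130 members without a CpG island window were among them. The 26 are not independent loci. Near the start of chromosome 11, 11 of them stand side by side, and 3 and 2 lie together on chromosomes 9 and 2. Some of them share a TSS window. Their interval counts each region as separate, so it does not measure the spread among independent loci.

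Matches to short elements of promoters were counted in the same 500-bp windows on either strand. The GC box, GGGCGG, was present in 79.0% of members (76.4 to 81.5%), 82.0% of the 2- to 3-fold class, 80.6% of the 3-fold class and 53.0% of all protein-coding genes. CCGGAAG, the core bound by ETS factors, was present in 29.6% (26.8 to 32.4%) of members and 29.4% (26.9 to 32.0%) of the 2- to 3-fold class. It was in 25.5% (23.7 to 27.4%) of the 3-fold class and 14.5% of all genes. The core of the NRF1 motif, GCATGCGC, was in 9.34% of members and 3.93% of all genes, and the YY1 motif AAGATGGCG in 7.15% and 2.89%. All of these were more frequent in the members than in all genes, and their intervals overlap those of the 3-fold class.

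The TATA box and the CCAAT box were less frequent in the members than in all genes. TATAAA, the TATA box, was found in 4.39% of members (3.23 to 5.81%) and 16.7% of all genes, and CCAAT in 41.8% (38.7 to 44.8%) and 47.8%. In the 2- to 3-fold and 3-fold classes TATAAA was in 4.82% and 5.46%, and CCAAT in 44.1% and 45.6%. The other 4 strings had higher shares in members: the cAMP response element TGACGTCA was in 4.77% of members and 2.59% of all genes, the E-box CACGTG in 15.3% and 10.4%, TCGCGAGA in 4.67% and 1.59%, and the ZNF143 motif CTACAATTC in 1.05% and 0.481%. For CTACAATTC, in 11 members, the intervals overlap (0.525 to 1.87% and 0.393 to 0.583%). For each string of this paragraph the members' interval overlaps those of the 2- to 3-fold and 3-fold classes. CACGTG and TGACGTCA read the same on both strands, and none of the 10 strings contains another. A match is a string in the window and does not show that the factor binds.

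**Figure D3:**
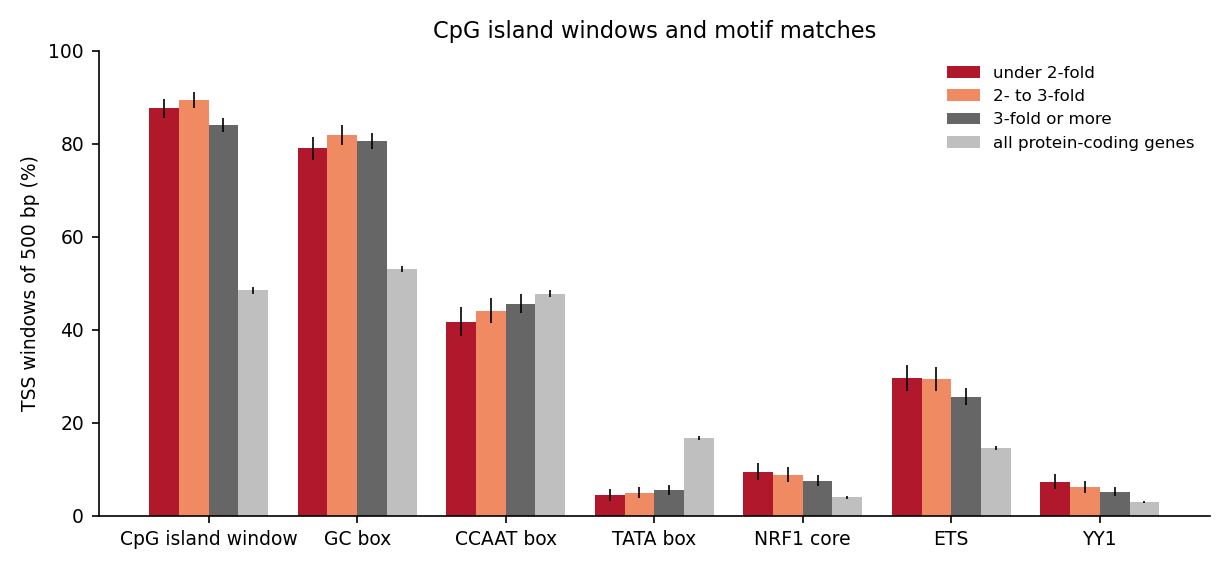
Share (y axis, %) of 500-bp TSS windows that meet the CpG island criteria or hold a motif (x axis) in members (under 2-fold), in promoter stretches of 2- to 3-fold and of 3-fold or more, and in all protein-coding genes; error bars are exact 95% intervals. The promoter classes lie close together, at 87.6%, 89.4% and 84.0% for CpG island windows, and apart from all genes at 48.4%. Windows of all genes are centred on each gene's most upstream TSS, those of the classes on the TSS nearest to the stretch's middle.

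Of the 1049 members, 999 (95.2%, 93.8 to 96.4%) overlapped the TSS window of a protein-coding gene. The rest took their names from 16 lincRNAs, 16 processed transcripts, 9 pseudogenes, 6 miRNAs, 2 snoRNAs and 1 rRNA. TSSs on both strands fell in 202 members (19.3%, 16.9 to 21.8%), against 16.2% (14.7 to 17.9%) of the 3-fold class. In all, 1131 protein-coding genes had a member in a window, which is 5.28% of the 21418, and 2291 (10.7%) had a stretch of 3-fold or more. Of the 4676 genes with any stretch, 24.2% had a member. None of the 1049 members overlapped the 732 autosomal regions deposited by the authors, against 27 of 1265 stretches of 2- to 3-fold and 552 of 2198 of 3-fold or more. Those regions had been chosen by fold over IgG, so this count is largely fixed by the rule. The paper reports more binding sites than the regions used here, so overlap with its full set was not counted.

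Gene lists by function were counted beside the 5.28% of all genes and the 24.2% of genes with a stretch. Of 78 cytosolic ribosomal protein genes, 16 (20.5%) had a member and 24 (30.8%) a stretch of 3-fold or more. The highest member was at *Rpl18*, with 17 Zfp322a and 9 IgG reads, and *Rps15a* had 15 and 9. Of 98 nuclear genes of oxidative phosphorylation, 20 (20.4%) had a member and 21 one of 3-fold or more, with *Ndufa13* of complex I the highest at 16 and 10. The latter list was matched by symbol, so not every gene in it codes for a subunit. *Cox4nb*, for example, is not a subunit and shares its member with its neighbour *Cox4i1*. Among the genes with any stretch, members were present at 16 of 53 ribosomal protein genes (30.2%, 18.3 to 44.3%), an interval that holds the 24.2% of all genes. For oxidative phosphorylation they were present at 20 of 54 (24.3 to 51.3%), whose lower bound lies at that background and counts the shared member for both genes. The members of *Ndufa13*, *Ndufb7*, *Cox4i1* and *Cox4nb* lie on chromosome 8 beyond 40 Mb, where 49.6% of promoter stretches were members. The 24.2% is not adjusted for chromosome, and the part of chromosome 8 in this share was not tested.

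For other groups the counts were 9 of 76 mitochondrial ribosomal protein genes (11.8%), with *Mrpl37* at 13 and 9 reads and *Mrpl12* at 13 and 7 the highest, 7 of 49 proteasome genes (14.3%), led by the lid subunit *Psmd7* at 14 and 12 and *Psmb2* at 14 and 11, and 8 of 38 aminoacyl-tRNA synthetase genes (21.1%). The highest of the last group, *Rars2*, lies head to head with *Orc3*, so the same member of 12 and 8 reads counts for both. Among the genes with a stretch their shares were 24.3% (11.8 to 41.2%), 28.0% (12.1 to 49.4%) and 30.8% (14.3 to 51.8%), and all 3 intervals hold the 24.2% of all genes. RNA polymerase subunits had members at 2 of 27 genes, *Polr3gl* at 14 and 10 reads and *Polr3g* at 12 and 11. Translation factors had them at 4 of 64 (6.25%), with *Eif3a* the highest. Of the genes with a stretch these were 2 of 12 (2.09 to 48.4%) and 4 of 29 (3.89 to 31.7%), and both intervals hold the 24.2%.

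Splicing and RNA-binding protein genes had members at 10 of 98 (10.2%), *Rbm27* at 13 and 10 reads and *Sf3a2* at 13 and 7 the highest, and stretches of 3-fold or more at 33. Replication and cell cycle genes had 8 of 77 (10.4%), led by *Orc6*, a subunit of the origin recognition complex, at 15 and 11, and ubiquitin enzymes 8 of 90 (8.89%), led by *Ube2b* at 13 and 11, with *Usp5* and *Usp16* each at 13 and 7. Among the genes with a stretch the shares of the splicing, replication and ubiquitin lists were 16.7% (8.29 to 28.5%), 19.05% (8.60 to 34.1%) and 20.5% (9.30 to 36.5%), whose intervals hold the 24.2% of all genes. Numbered zinc finger genes had members at 32 of 362 (8.84%), and at 32 of the 101 with a stretch (31.7%, 22.8 to 41.7%). Their highest, at 17 and 9 reads, is shared by *Zfp668* and *Zfp646*, and *Zfp1* had 14 reads in each library.

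The last lists were histone, Hox and olfactory receptor genes. The only member among 67 replication-dependent histone genes was at *Hist4h4*, with 16 Zfp322a and 14 IgG reads, and 5 of the 67 had any stretch. None was found at 40 Hox genes (exact upper limit 8.81%) or at 1081 olfactory receptor genes (upper limit 0.341%), and these genes had no stretch of any fold. The histone interval (0.0378 to 8.04%) and that of the Hox genes hold the 5.28% of all genes. These lists were chosen with earlier results known and are counts beside a background, not tests of a pathway.

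The share of members was largest on chromosome 8. On it 125 of 271 promoter stretches were members (46.1%, 40.1 to 52.3%), against 924 of 4241 (21.8%, 20.6 to 23.1%) on the other autosomes, where the shares ran from 15.8% on chromosome 12 to 27.5% on chromosome 17. Outside all stretches the ratio of Zfp322a to IgG reads per library read was 0.749 on chromosome 8. The ratio changed along the chromosome: it was 0.985 (0.973 to 0.997) from 0 to 40 Mb, where 10 of 39 promoter stretches (25.6%) were members, and 0.693 (0.689 to 0.698) from 40 to 140 Mb, where 115 of 232 (49.6%) were. The lower Zfp322a to IgG ratio and the larger share of members thus lay in the same part of the chromosome.

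With IgG heights scaled by each chromosome's own reads, a setting added after the data were seen, 84 of the 271 stretches of chromosome 8 (31.0%) and 1327 of the 4241 elsewhere (31.3%) were under 2-fold. The excess on chromosome 8 was absent under that scaling. Chromosomes 10, 12 and 18 also had low ratios, of 0.853, 0.851 and 0.836, with member shares of 19.4%, 15.8% and 22.4%, the second being the lowest of the 19 autosomes. The part of the library ratio in the share on these chromosomes was not tested. *Crtc1*, a coactivator of CREB, was the chromosome 8 member of lowest fold, with 9 Zfp322a and 17 IgG reads. *Ndufa13*, *Psmd7*, *Orc6*, *Upf1* and *Klf2*, a pluripotency factor with 12 and 8 reads, lie on the same chromosome.

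**Figure D4:**
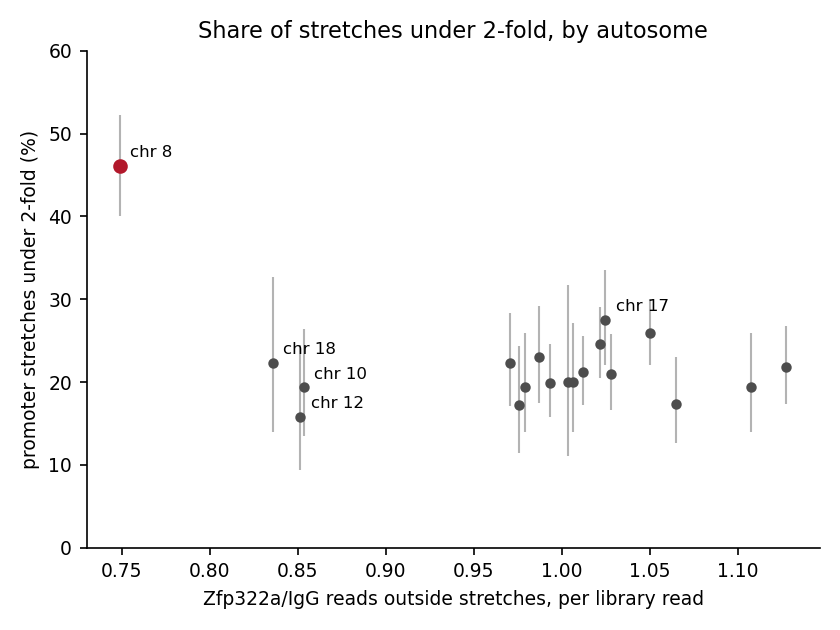
Share of promoter stretches that are members (y axis, %, exact 95% intervals) against the ratio of Zfp322a to IgG reads outside all stretches per library read (x axis), 1 point per autosome. Chromosome 8, in red, stands apart with 46.1% at a ratio of 0.749; chromosomes 10, 12 and 18 have ratios of 0.836 to 0.853 and shares of 15.8% to 22.4%.

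Reads 1 to 5 kb beyond the edges of a member and outside every stretch were not used by the rule. Their Zfp322a to IgG ratio per library read was 1.11 (1.09 to 1.13) at the members, 1.13 (1.11 to 1.15) at stretches of 2- to 3-fold and 1.16 (1.14 to 1.17) at those of 3-fold or more. For heights of 9 to 19 reads it was 1.17 (1.15 to 1.19) at the 900 members on autosomes other than 8, 1.17 at the 1970 stretches of 3-fold or more there, and 0.842 (0.806 to 0.878) at the 123 members on chromosome 8. There it was 0.829 (0.784 to 0.876) at stretches of 2- to 3-fold and 0.896 (0.839 to 0.958) at those of 3-fold or more, so all classes were low on that chromosome. On the other autosomes the intervals of the members and of the 3-fold class thus overlap (1.15 to 1.18 for the latter). Over all autosomes the ratio at heights of 15 to 19 reads was 0.997 (0.939 to 1.06) at the members and 1.156 (1.119 to 1.195) at the 3-fold class, whose intervals do not overlap. Nor did they at 11 to 14 reads, with 1.108 (1.080 to 1.136) against 1.172 (1.147 to 1.197), or at 20 or more, with 0.932 (0.841 to 1.034) against 1.149 (1.098 to 1.201). At 9 to 10 reads they overlap, with 1.137 (1.109 to 1.165) against 1.149 (1.129 to 1.168). The 2- to 3-fold class had 1.173 (1.143 to 1.203) and 1.125 (1.099 to 1.151) at 9 to 10 and 11 to 14 reads. At 15 to 19 and at 20 or more it had 1.072 (1.029 to 1.117) and 0.908 (0.808 to 1.021). At each height its interval overlaps that of the members. These values by height include chromosome 8, and they were not split by height and chromosome together beyond the pooled heights of 9 to 19 reads above.

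Reads of lower mapping quality were likewise not used. They made up 29.3% of Zfp322a reads and 34.1% of IgG reads that start in members, against 1.74% and 1.35% in stretches of 2- to 3-fold and 0.983% and 1.64% in those of 3-fold or more. Nearly all of them fell in a few places: 993 members (94.7%) had no such read, and 12 had more of them than of unique reads. Most of these 12 are predicted genes on chromosomes 9 and 2. At *Gm10715* 579 Zfp322a and 543 IgG reads were of low quality beside 100 and 88 of quality 25 or more, and at *Gm10801*, whose sequence is printed above, 964 and 949 beside 83 and 77. At its neighbour *Gm10800* they were 1632 and 1606 beside 110 and 91.

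The same held at the start of chromosome 9, from 2999872 to 3036637, where 6 members had 91.8% of reads of low quality. Their TSS windows had a GC content of 33.8 to 36%, and Zfp322a and IgG reads of higher quality numbered 238 and 200. A read of low mapping quality has no certain place, so the levels at these genes are uncertain. The number of members changes little with these reads: with all mapped reads it was 1192.

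The 26 members of 20 reads or more were named after their values were seen, beyond the 8 highest. The highest of all was *AY036118*, listed as a pseudogene, on chromosome 17 from 39979781 to 39985942. Its heights were 217 Zfp322a and 218 IgG reads, from 2443 and 2438 reads over 6162 bp, with 18.3% of all its reads of low mapping quality. Its CpG ratio was 0.936. *AC113316.1*, an annotated miRNA in an intron of *Cdk8* on chromosome 5 from 147072336 to 147073140, had heights of 51 and 47 reads. Of all its reads, 25.1% were of low quality.

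Near the start of chromosome 11, from 3031809 to 3099561, 11 of the 26 stood side by side. They take their names from *Sfi1*, a centrosomal protein gene with many annotated transcripts, and the pseudogenes *Gm11400* and *Fau-ps2*. Zfp322a heights ran from 20 to 129 and IgG heights from 22 to 96. The summed reads were 3127 and 2982, a ratio of 0.986 per library read. The rule chose these members by the fold of their heights, so this ratio is a description without a test. Of all reads there, 11.1% were of low quality, a smaller share than at the chromosome 9 genes. The highest member of the cluster spans 3090944 to 3094861, where the pileups rose to 129 Zfp322a and 96 IgG reads. Low mapping quality was found for 1.07% of all reads that start in it. Another, from 3041595 to 3048921, had 56 and 63. Members of this cluster reach 9425 bp in length, far above the median of 247 bp.

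At another group of high members the reads lay over coding sequence. *Patz1*, a zinc finger transcription factor gene, lies on chromosome 11 a short way beyond that cluster. Its member from 3190287 to 3192365, in a coding exon, had 62 Zfp322a and 95 IgG reads. A member named *Gm11944*, from 3207521 to 3208130, had 36 and 57 and lies in the last coding exon of *Patz1*. Over the gene, coding sequence held 114 Zfp322a and 187 IgG reads per kb, other exon sequence 8.45 and 6.48, and introns 6.50 and 4.26. Both libraries thus had their reads in the coding sequence of *Patz1*, with IgG the higher.

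*Sall4*, a zinc finger factor of pluripotency, had its member on chromosome 2 from 168579919 to 168582298 in a coding exon, with 42 Zfp322a and 23 IgG reads. Coding sequence held 84.9 and 42.2 reads per kb, other exon sequence 1.73 and 2.16, and introns 2.84 and 3.69. The member *Gm13061*, a lincRNA on chromosome 4 from 133573744 to 133574341 with 27 and 25 reads, has its middle in a coding exon of *Lin28a*, an RNA-binding protein of ES cells and a reprogramming factor. Over *Lin28a*, coding sequence held 177 Zfp322a and 118 IgG reads per kb, other exon sequence 3.13 and 2.78, and introns 3.75 and 4.41. At all 3 genes coding sequence exceeded introns in both libraries, and the library with more reads was IgG at *Patz1* and Zfp322a at *Sall4* and *Lin28a*. No read of low mapping quality lay in these 4 members, and what gave rise to reads confined mostly to coding sequence was not tested.

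*Pou5f1*, which codes for Oct4, was the member of lowest fold, at 0.286. On chromosome 17 from 35642610 to 35643227 it had 14 Zfp322a and 49 IgG reads, the IgG height the largest among members under 20 Zfp322a reads. In the 500 bp before the TSS there were 20 Zfp322a and 67 IgG reads, in the next 500 bp upstream 3 and 5, in the first 500 bp after the TSS 6 and 15, and from 500 to 1000 bp after it 6 and 3. A further block lay 2000 bp upstream, with 17 and 30 reads from -2500 to -2000 bp and 7 and 18 from -2000 to -1500 bp. Over the gene, coding sequence held 8.91 and 6.24 reads per kb, other exon sequence 5.29 and 16.75, and introns 10.06 and 4.43. The 3 kb upstream held 53 Zfp322a and 123 IgG reads, and the IgG pileup ran across the TSS into the gene's start. The TSS window had a GC content of 63.8% and a CpG ratio of 0.354, below the island criterion.

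**Figure D5:**
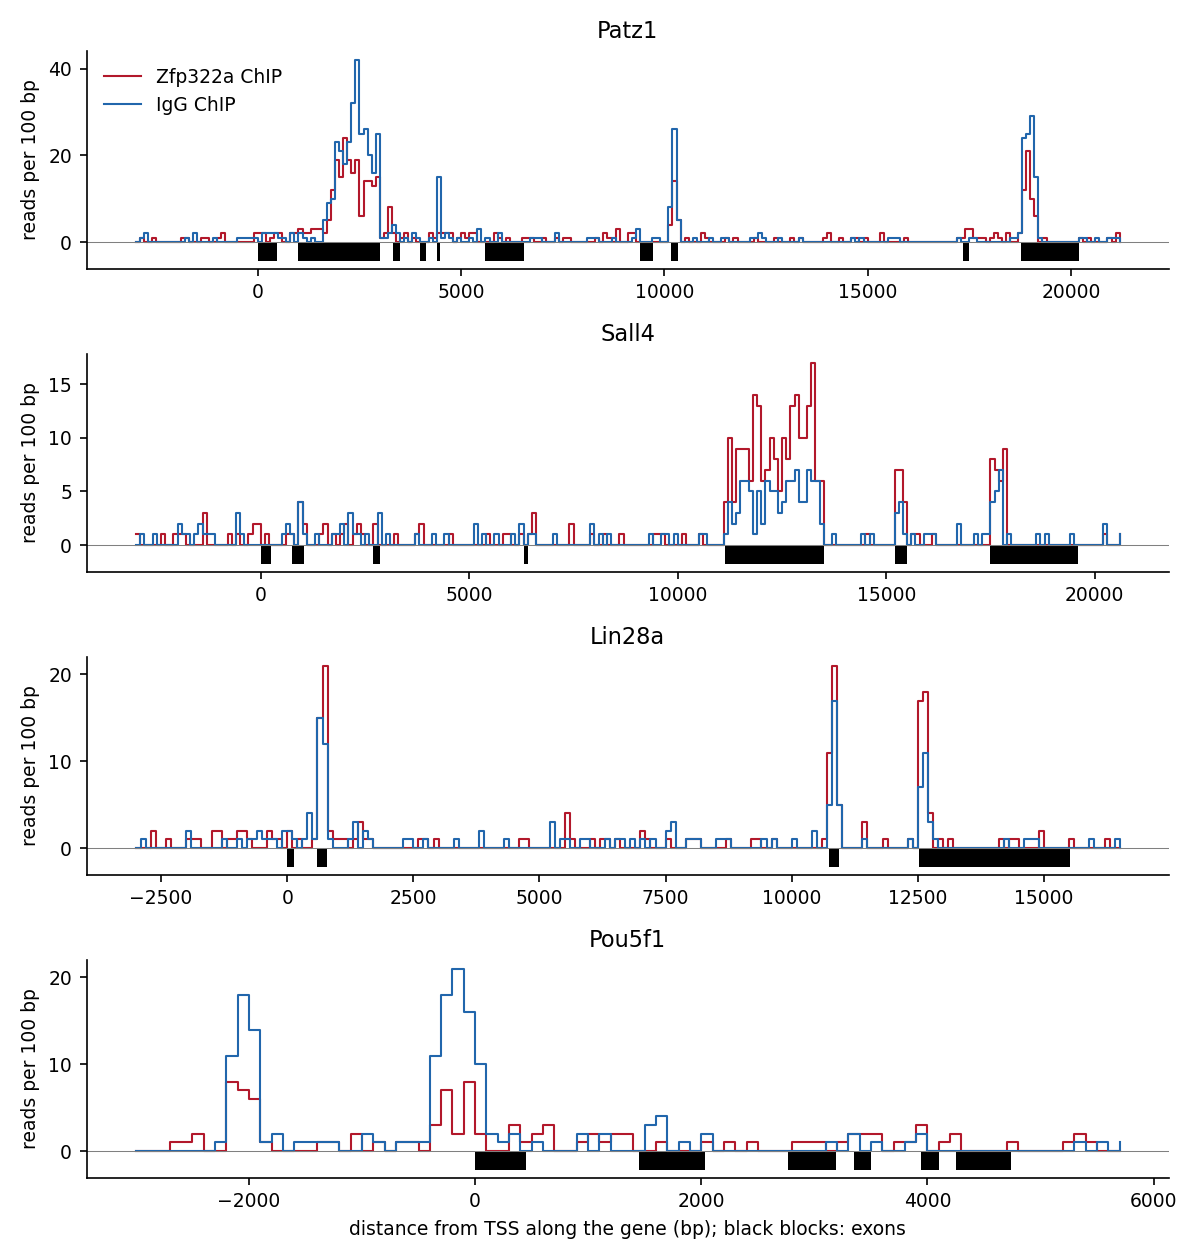
Reads per 100 bp (y axis) of mapping quality 25 or more by distance from the TSS (x axis, bp) over *Patz1*, *Sall4*, *Lin28a* and *Pou5f1* in the Zfp322a (red) and IgG (blue) libraries; black blocks are exons. In *Patz1*, *Sall4* and *Lin28a* the reads of both libraries stand over coding exons, with 187, 42.2 and 118 IgG reads per kb of coding sequence, and in *Pou5f1* the IgG reads stand highest around the TSS, with 67 in the last 500 bp before it and 15 in the first 500 bp after it.

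Among 26 autosomal genes of pluripotency, 4 had a member, *Sall4*, *Pou5f1*, *Klf2* and *Trim28*, a corepressor with 12 and 7 reads, and 1 had a stretch of 3-fold or more. The share with a member, 15.4%, has an interval of 4.36 to 34.9%, which holds the 5.28% of all genes, and that of the 4 among 7 genes with a stretch (18.4 to 90.1%) holds the 24.2%. The reads at *Sall4* lay in coding exons and those at *Pou5f1* mostly upstream of the TSS in the IgG library, as given above. At *Klf2* and *Trim28* the reads were ordinary low pileups in windows of 68.2% and 65.4% GC.

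The remaining high members were CpG-rich promoters like the low ones. *Fam53a* had 21 Zfp322a and 12 IgG reads, *Banp*, a nuclear matrix protein gene on chromosome 8, 20 and 12, and *Mau2*, a cohesin loader gene on the same chromosome, 20 and 11. With *St13*, these are the 4 among the 26 with ordinary CpG-rich windows of 61.2 to 73.0% GC and reads in a gene's own promoter. Those reads were unique but for 1 Zfp322a read of low mapping quality at *St13*. The folds of *Fam53a*, *Banp*, *Mau2* and *St13* were 1.75, 1.67, 1.82 and 1.91.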

How the data were processed

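The authors mapped 36-base reads of the Genome Analyzer IIx to mm9 and deposited every mapped read with its mapping quality score, 1 line per read. The submitters' processing notes name CASAVA 1.4, BWA and Partek 6.6. The authors also deposited the reads in numbered regions called with Partek from 300-bp fragments; their positions served only for an overlap count. TSSs, exons and sequence came from GENCODE vM1 and its genome, NCBIM37, the build of mm9, and 0 reads lay beyond a chromosome end. Sequences printed were read from that genome.

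Pileups, stretches, motif matches, shares and ratios were computed in Python 3.11.15 (numpy 2.4.6, scipy 1.17.1, pandas 2.3.3) and plotted with matplotlib 3.10.9. Stretches were required to reach 9 reads after extension to 300 bp; IgG heights were not scaled, and where no IgG read lay the height was set to 1. A member is named by the protein-coding gene whose TSS, among the windows it overlaps, is nearest to its middle, or else by the nearest gene of another kind. Shares carry exact Clopper-Pearson intervals and read ratios exact conditional binomial intervals, at 95%. No p-value was computed, since each antibody has 1 library. The calling of stretches, their fold of heights and the intervals of read ratios were tested on simulated reads. Motif matches, shares and TSS windows were not.

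Named were the 8 members of highest Zfp322a height, the 5 next by IgG height, the 5 of lowest fold, the highest of each of 15 gene lists, and 3 on either side of the fold limit; other names were added after their values were seen. Members, lists and rule were chosen with earlier results of these data known. Alternatives concerned heights, folds, scaling, mapping quality, fragment size, joining and TSS windows.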

Additional observations from a re-analysis of the deposited data

How the results depend on the processing

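The number of members, 1049, followed the thresholds. It was 418 with a minimal height of 11 reads, 364 with a fold under 1.5, 374 with reads extended to 200 bp, 2314 with a fold under 3 and 1728 with stretches not joined, and stayed within 1.5 times in the other 8 alternatives. The share of promoter stretches that are members, 23.2%, was 16.9%, 8.07%, 14.2%, 51.3% and 21.1% in the same settings, 29.0% with IgG heights scaled by library totals, 24.6% with all mapped reads and 21.7% when mapping quality had to reach 37. The share of protein-coding genes with a member, 5.28%, was 2.11%, 1.78%, 1.83%, 11.8%, 6.05%, 6.66%, 5.78% and 4.71% in the same order. Of the 1049 members, 28.7% overlapped a member with reads extended to 200 bp and 39.4% with a height of 11; with the settings other than these and a fold under 1.5, at least 85.2% did.

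Composition moved little. CpG island windows, 87.6%, were 83.8% with a fold under 1.5, 84.8% with reads extended to 200 bp and 90.1% with TSSs of protein-coding transcripts only, and the median GC content ran from 63.6% (fold under 1.5) to 64.6%. Members at a protein-coding TSS, 95.2%, were 91.3% with all mapped reads, 92.8% at 200 bp and 100% by construction with protein-coding TSSs only. The ratio of flanking reads, 1.11, was 1.06 with a height of 11 reads, 1.08 with a fold under 1.5, 1.06 with all mapped reads and 1.06 at 200 bp.

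Reads of low mapping quality, 31.4% of the reads of both libraries in members, also moved with the setting. They were 37.4% with a height of 11, 37.04% with a fold under 1.5, 21.7% with a fold under 3, 28.3% with scaling by library totals, 19.3% when quality had to reach 37, 48.0% at 200 bp, 37.2% not joined and 38.9% with protein-coding TSSs only, and 0 by construction with all mapped reads.

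In settings added after seeing the data, scaling by the reads of each chromosome gave 31.3% of promoter stretches, 7.19% of genes, a flank ratio of 1.15 and 27.3% low-quality reads. Leaving out chromosome 8 gave 21.8% of promoter stretches, a flank ratio of 1.16 and 32.9% low-quality reads. The genes with a member on the other autosomes were 4.64% of all 21418, chromosome 8 genes included, so this share could only fall. Without members of 20 reads or more, low-quality reads were 16.6%.

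At this depth a height of 9 reads rests on at most 9 fragments, and near the fold limit 1 read can decide the side of a member. No paired analysis was possible because each antibody has 1 library.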
